A study of Mus musculus with 8 samples.

Results

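Granulocyte precursor and primary granule genes were followed in CD11b-selected brain cells from white and grey matter of young and old mice. They are 10 of the 51810 genes in the table and were found by symbol, each on 1 row: Elane, Mpo, Prtn3, Ctsg, Fcnb, Prg2, Ms4a3, Cebpe, Camp and Ltf. Of these, 9 passed the filter on low counts and Ms4a3 did not. The genes were chosen by name with earlier results of these libraries in view, and the choice rests on the difference between white and grey matter at 21 months, where Prg2, Fcnb and Elane had stood out. That difference is therefore given as a description. The 4 groups, each of 2 libraries, were white matter at 21 months, grey matter at 21 months, white matter at 4 months and grey matter at 4 months. All came from wild-type mice with no treatment named, and strain, sex and the number of animals behind a library are not given in the labels. White matter is the corpus callosum, the fibre tract that joins the hemispheres; the region label of the grey matter samples names it as well, so titles and tissue label alone tell the regions apart. The labels do not tie the libraries to animals, so the p-values measure only how these libraries vary, which may be technical. In each group myelin was taken off on Percoll and cells were held on beads against CD11b, an integrin chain that microglia share with neutrophils, monocytes and their precursors, so that the selection keeps all of these.

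Neutrophils are made in bone marrow in a fixed order of stages. Promyelocytes fill the primary, or azurophil, granules with myeloperoxidase and serine proteases, myelocytes and metamyelocytes then fill the secondary, or specific, granules with lactoferrin and cathelicidin, and each set of messages is largely shut off before the cell leaves for the blood. Circulating neutrophils carry the proteins in their granules but little of the early messages, whereas S100a8, S100a9, Cxcr2 and Csf3r messages persist in mature cells. Brain tissue holds few neutrophils, and microglia are not known as a main source of azurophil granule proteins.

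The promoters of the azurophil granule genes and of 2 later genes, Fcnb and Ltf, are shown. Factors of the ETS family (PU.1) and the C/EBP family are known to act at granule genes. The promoters of Ms4a3 and of Camp, which holds neither marked sequence, are not printed. Of the 10 genes, 8 had an entry in the RefSeq promoter table (build GRCm38.p6), and Prg2 and Cebpe did not. Each run is the 250 bases before the gene's start, 5′ to 3′ on the gene's strand. Capitals mark GAGGAA, an ETS core, and TTNNGNAA, a relaxed C/EBP site, searched on both strands.
Elane, chr10:79886062-79886311, strand +: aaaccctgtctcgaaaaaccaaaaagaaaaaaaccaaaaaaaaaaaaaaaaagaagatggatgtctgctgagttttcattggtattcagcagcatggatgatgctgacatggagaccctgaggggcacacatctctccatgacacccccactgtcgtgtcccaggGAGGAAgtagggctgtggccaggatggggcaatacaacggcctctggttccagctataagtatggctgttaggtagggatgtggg
Prtn3, chr10:79879417-79879666, strand +: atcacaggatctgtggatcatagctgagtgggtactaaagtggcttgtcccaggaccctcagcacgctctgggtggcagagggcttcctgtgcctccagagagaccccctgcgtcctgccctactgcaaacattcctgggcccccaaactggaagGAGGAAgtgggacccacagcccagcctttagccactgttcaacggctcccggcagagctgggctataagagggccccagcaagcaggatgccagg
Mpo, chr11:87793534-87793783, strand +: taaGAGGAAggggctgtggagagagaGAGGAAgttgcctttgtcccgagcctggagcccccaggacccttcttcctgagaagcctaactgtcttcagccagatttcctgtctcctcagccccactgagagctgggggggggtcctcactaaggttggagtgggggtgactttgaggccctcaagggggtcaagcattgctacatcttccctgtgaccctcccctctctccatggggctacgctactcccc
Ctsg, chr14:56102575-56102824, strand -: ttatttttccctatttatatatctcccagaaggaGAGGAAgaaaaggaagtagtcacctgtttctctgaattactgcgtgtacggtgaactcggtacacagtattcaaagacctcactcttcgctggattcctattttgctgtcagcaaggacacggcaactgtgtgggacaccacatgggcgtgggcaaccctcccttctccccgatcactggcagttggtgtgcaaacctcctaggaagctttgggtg
Fcnb, chr2:28084879-28085128, strand -: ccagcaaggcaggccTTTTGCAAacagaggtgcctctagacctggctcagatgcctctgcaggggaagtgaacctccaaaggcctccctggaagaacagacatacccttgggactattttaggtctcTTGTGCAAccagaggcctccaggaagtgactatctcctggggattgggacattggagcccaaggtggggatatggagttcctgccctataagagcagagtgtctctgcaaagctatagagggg
Ltf, chr9:111019042-111019291, strand +: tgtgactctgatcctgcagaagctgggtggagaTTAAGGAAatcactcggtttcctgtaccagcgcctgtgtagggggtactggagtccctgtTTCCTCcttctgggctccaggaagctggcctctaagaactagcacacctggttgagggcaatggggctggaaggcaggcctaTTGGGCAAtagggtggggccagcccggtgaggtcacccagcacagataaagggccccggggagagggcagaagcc

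GAGGAA lay in the promoters of Elane, Prtn3, Mpo, Ctsg and Ltf, 5 of the 8, and in 23.3% of the 32851 promoters of the table. In Elane it began 85 bases and in Prtn3 95 bases before the start. TTNNGNAA lay in Fcnb, Ltf and Ms4a3, 3 of the 8, and in 36.8% of all promoters. No stretch of a C/EBP match overlapped an ETS match in these windows. For Camp, neither sequence was in the window. The RUNX core TGNGGT was found in 2 of the 8 (40.1% of all) and the MYB core AACTG in 3 of the 8 (39.1%). These matches are descriptions of the letters only. Prtn3 and Elane are neighbours in the gene annotation (GENCODE M21), Ctsg lies beside granzyme and mast cell protease genes, and Prg2 lies beside Prg3. Mpo is overlapped by Gm11505 and Prtn3 by Plppr3, each on the opposite strand; the sources used here do not say whether the counting used strand, so how reads from the overlapping stretches were assigned is not known.

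Libraries held 3273258 to 6315782 counts, and levels are given as CPM, the usual depth-scaled count, after TMM scaling, in which 1 count was worth 0.174 to 0.363 CPM. The first library of 4-month white matter differed from the rest: its 12 myelin and oligodendrocyte genes reached a sum of 65580 CPM, where the range was 200 to 821.1 in the other 7, and its 12 homeostatic microglia genes reached 3999 CPM, against 14930 to 23220. Itgam, which encodes CD11b itself, stood at 225.7 CPM there and at 1476 to 2143 in the others. All 12 microglia genes had counts in all libraries. The ratios below that use 4-month white matter are therefore also given with that library left out. In bulk RNA, fewer cells of a type and less RNA per cell cannot be told apart.

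Messages of the 10 genes were concentrated in grey matter at either age. Their summed level was 33.4 and 3.73 CPM in white matter at 21 months, against 326.6 and 304.0 in grey matter at 21 months. At 4 months it was 12.4 and 66.2 CPM in white matter, against 501.8 and 280.6 in grey matter. In counts, the sums at 21 months were 141 and 15 in white matter, against 1649 and 1089 in grey matter, and at 4 months 34 and 264 in white matter, against 2877 and 1535 in grey matter. Most of these counts came from the secondary granule genes Camp and Ltf. At 21 months these 2 genes gave 115 and 10 counts in white and 1208 and 568 in grey matter. At 4 months they gave 26 and 218 counts in white and 2169 and 1199 in grey matter. All 10 genes were detected in each of the 4 grey matter libraries. White matter libraries detected 6 and 5 of them at 21 months and 6 and 9 at 4 months.

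**Figure D1:**
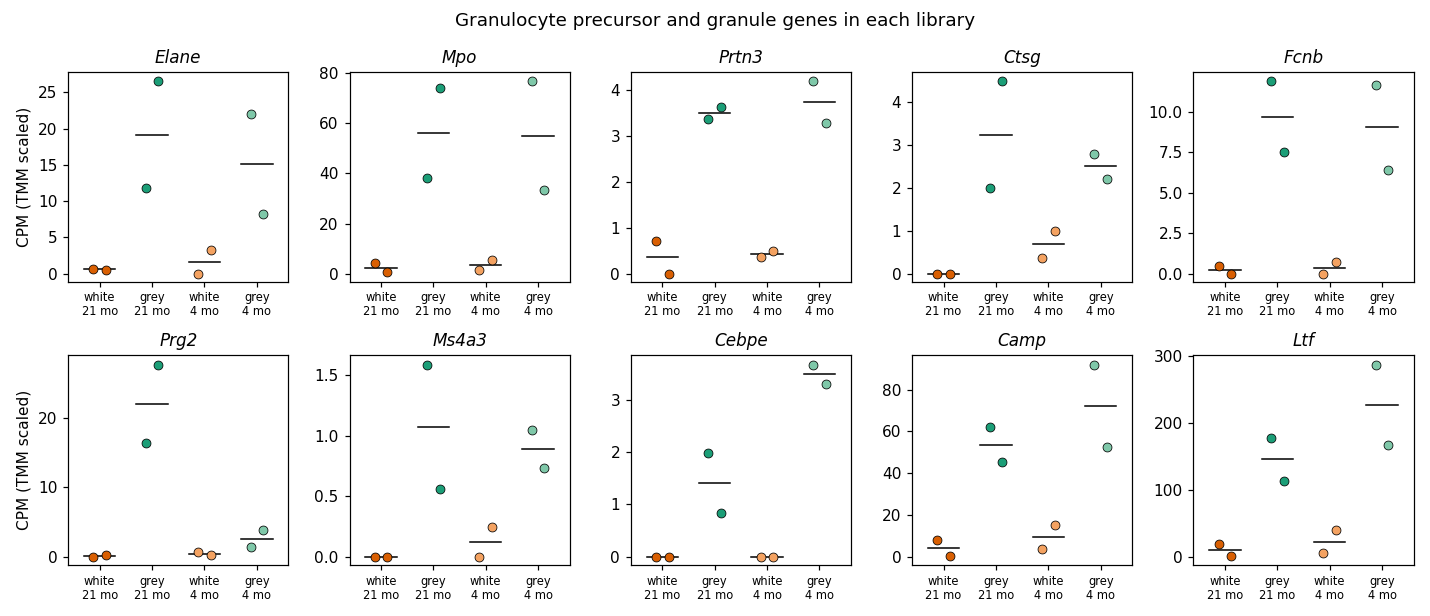
Level of each of the 10 genes in every library, in CPM after TMM scaling on a linear axis that differs between panels; each point is a library and the bar is the mean of the 2 libraries of a group. Every white matter point lies below every grey matter point of the same age, and Prg2 stands at 16.4 and 27.6 CPM in 21-month grey matter, against 1.40 and 3.84 CPM in 4-month grey matter.

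The azurophil proteases came first in role. Elane encodes neutrophil elastase, which degrades bacterial and matrix proteins. It stood at 0.71 and 0.50 CPM in white and 11.9 and 26.5 CPM in grey matter at 21 months, and at 0 and 3.26 CPM in white and 22.0 and 8.23 CPM in grey matter at 4 months. All grey matter libraries lay above all white matter libraries, and the 2 ages of grey matter overlapped. Over the summed counts, 5 in white and 155 in grey matter at 21 months, the grey matter level was 29.6 times that of white matter, with an exact 95% interval of 12.4 to 92.6. At 4 months it was 7.91 times (4.51 to 15.2), from 13 counts in white and 171 in grey matter, and 4.68 times (2.67 to 8.97) over the second white matter library alone, since the other had no count. Such intervals cover counting error only, not the spread between libraries.

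Prtn3 encodes proteinase 3, a close relative of elastase from the neighbouring gene. It had 0.71 and 0 CPM in white matter, against 3.37 and 3.63 in grey matter at 21 months, and 0.36 and 0.50 in white and 4.19 and 3.29 in grey matter at 4 months. The 4 grey matter libraries lay within 3.29 to 4.19 CPM, close to each other for so low a level. White matter had 3 counts in all at each age, so its level was 0.105 times that of grey matter at 21 months (0.0204 to 0.336) and 0.119 times at 4 months (0.0235 to 0.372), or 0.134 times (0.0157 to 0.514) from the 2 counts of the second 4-month white matter library alone. Plppr3, which overlaps it, stood at 59.8 and 76.0 CPM in white and 47.3 and 63.6 in grey matter at 21 months and overlapped between the regions at that age.

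Ctsg encodes cathepsin G, a protease of the same granule. No read was counted in 21-month white matter, while 21-month grey matter had 1.98 and 4.47 CPM. At 4 months it had 0.36 and 1.00 CPM in white matter, against 2.79 and 2.19 CPM in grey matter. Set against a floor of 3 counts over the group, Ctsg was at least 8.29-fold lower in 21-month white matter than in grey matter. At 4 months, with 5 counts in white and 28 in grey matter, the white matter level was 0.297 times that of grey matter (0.0895 to 0.779), the smallest difference among the 9 members that passed the filter. Over the second white matter library alone it was 0.402 times (0.102 to 1.15), an interval that includes equal levels.

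Mpo encodes myeloperoxidase, which makes hypochlorous acid and is the most used marker of the promyelocyte stage. Its levels were 4.26 and 0.50 CPM in white and 38.2 and 74.3 in grey matter at 21 months, and 1.45 and 5.52 in white and 76.7 and 33.5 in grey matter at 4 months. No white matter library came near the lowest grey matter library. The ratio of white to grey matter over summed counts was 0.0456 at 21 months (0.0276 to 0.0712) and 0.0694 at 4 months (0.0450 to 0.103), or 0.0992 (0.0617 to 0.152) when white matter was the second library alone. Its antisense neighbour Gm11505 followed it, with 0.71 and 0.75 CPM in white and 17.8 and 29.6 in grey matter at 21 months, and 0 and 0 in white and 24.4 and 17.4 in grey matter at 4 months. How reads in the overlap were shared between the pair was not tested.

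The genes of granule maturation came next. Cebpe encodes the factor that drives the change from primary to secondary granules. No count was found in any white matter library, against 1.98 and 0.84 CPM in 21-month and 3.66 and 3.29 CPM in 4-month grey matter. It was thus at least 4.14-fold lower in white matter at 21 months and at least 7.82-fold lower at 4 months, or 4.63-fold with the second white matter library alone, with the floor of 3 counts over the group. Camp, the cathelicidin precursor of the specific granule, stood at 8.04 and 0.50 CPM in white and 62.0 and 45.2 in grey matter at 21 months, and at 4.00 and 15.1 in white and 91.9 and 52.5 in grey matter at 4 months. Ltf, the iron-binding lactoferrin, stood at 19.2 and 1.99 CPM in white and 177.3 and 113.3 in grey matter at 21 months, and at 5.45 and 39.6 in white and 286.4 and 166.7 in grey matter at 4 months. For Camp the grey matter level was 12.6 times that of white matter at 21 months (8.98 to 18.2) and 6.90 times at 4 months (5.41 to 8.92), or 4.83 times (3.71 to 6.38) against the second white matter library alone. For Ltf, the member with the most counts, it was 14.0 times at 21 months (11.3 to 17.5) and 8.88 times at 4 months (7.61 to 10.4), or 5.75 times (4.90 to 6.80) against that library alone. Camp and Ltf were lower in each white matter library than in any grey matter library.

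The remaining members mark precursors by other products. Fcnb encodes ficolin B, a lectin that binds bacterial sugars and is made by immature granulocytes in mouse marrow. It had 0.47 and 0 CPM in white and 11.9 and 7.54 in grey matter at 21 months, and 0 and 0.75 in white and 11.7 and 6.40 in grey matter at 4 months. Its white matter level was 0.0240 times that of grey matter at 21 months (0.00287 to 0.0895) and 0.0489 times at 4 months (0.00992 to 0.147), or 0.0827 times (0.0168 to 0.249) over the second white matter library alone. Ms4a3, a membrane protein of granulocyte and monocyte progenitors, had 0 counts in white and 10 in grey matter at 21 months, and 1 count in white and 10 in grey matter at 4 months. It was too sparse for the low-count filter and was not tested, and its floor put it at least 3.19-fold lower in white matter at 21 months.

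Prg2 encodes the major basic protein of eosinophil granules, and its message appears early in that lineage. It was at 0 and 0.25 CPM in white matter, against 16.4 and 27.6 in grey matter at 21 months, from 1 count in white and 182 in grey matter. At 4 months it had 0.73 and 0.25 CPM in white matter, against 1.40 and 3.84 in grey matter, from 3 counts in white and 29 in grey matter. Its grey matter level at 21 months was far above all other libraries. The ratio of white to grey matter was 0.00575 at 21 months (0.000145 to 0.0324) and 0.172 at 4 months (0.0335 to 0.555), or 0.0969 (0.00237 to 0.585) from the 1 count of the second white matter library.

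The comparison of white with grey matter was tested at 4 months, in libraries that took no part in the 21-month difference, although earlier results for neutrophil genes at 4 months were also known. By the quasi-likelihood test of edgeR with all 8 libraries, 0 of 9 members were called at an adjusted p under 0.05, against 0% of the 16237 genes tested. At an unadjusted p under 0.05, 1446 genes passed. Of the 16237 genes tested, 379 (2.33%) passed and were lower in white matter, and 8 of the 9 members were among these. DESeq2 called 515 of the 16237 genes and 3 of the 9 members, and limma with quality weights called 0 of each. Libraries of the 2 regions did not overlap, with white matter lower, for 9 of 9 members and for 15.5% of all genes tested. The low-count filter asked for enough counts in at least 2 libraries, which these genes had in grey matter, so a count over the members that passed is no support for a difference.

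Fitted log2 fold changes at 4 months, white over grey matter, were -3.93 ± 0.99 (SE) for Mpo (adjusted p = 0.479), -4.33 ± 1.16 for Fcnb (adjusted p = 0.479) and -3.31 ± 1.15 for Ltf (adjusted p = 0.488). Those of Camp, Elane, Prtn3, Prg2 and Ctsg were -2.90, -3.09, -3.01, -2.44 and -1.77, with adjusted p between 0.497 and 0.676. None of these passed. The standard errors, near 1 on the log2 scale, were derived here and below from the fold change and its test statistic. They hold counting error as well as the spread that the fit allowed between libraries. Without the first 4-month white matter library, so that the remaining library stood for its group and was taken to vary like the others, these 8 lay between -3.52 and -1.27, at -3.29 for Mpo, -3.52 for Fcnb, -2.18 for Elane and -2.24 for Camp (adjusted p = 0.92 for each). Members at 0 throughout white matter have no meaningful fitted value and are given by their ratio to the floor above. The median over the 9 tested members was -3.09, and -2.81 without that library, against 0.011 and -0.021 over all genes tested. The median of the members includes Cebpe, which had no count in white matter. The members passed the low-count filter through grey matter, so this gap is no support for a difference.

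At 21 months the same fit of all 8 libraries called 0 of 9 members and 0% of genes, with 381 genes at an unadjusted p under 0.05. Fitted values were -7.19 ± 1.11 for Prg2, -5.18 ± 1.22 for Fcnb, -4.92 ± 1.28 for Elane and -4.54 ± 1.02 for Mpo. Camp, Ltf and Prtn3 followed at -3.64, -3.77 and -3.18. With the 21-month libraries alone 3 of 7 tested members were called, Prg2, Elane and Fcnb, against 1.58% of genes. Without the first 4-month white matter library Prg2 alone among 9 was called, against 0.109% of genes. White matter libraries lay below grey matter libraries for 9 of 9 members and 19.5% of all genes tested. Since this difference chose the genes, nothing is read from these counts.

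**Figure D2:**
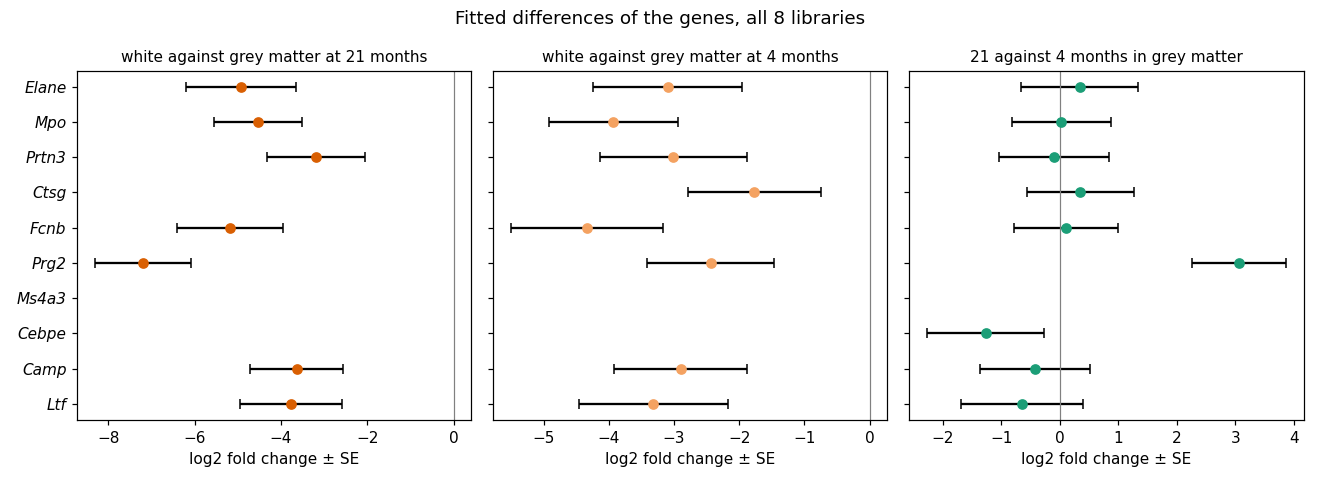
Fitted log2 fold changes with their standard errors for white over grey matter at 21 months, white over grey matter at 4 months and 21 over 4 months in grey matter, from the fit of all 8 libraries. Genes with no count in a group, and Ms4a3, which did not pass the filter, have no point; the x axes differ. Values lie between -7.19 and -3.18 in the first panel and between -4.33 and -1.77 in the middle one, while in the last one Prg2 stands at 3.06 and the others between -1.26 and 0.35.

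Whether the difference between white and grey matter itself changed with age was tested as an interaction. No member and 0% of genes passed in edgeR, where 455 genes had an unadjusted p under 0.05, DESeq2 called 20 genes and no member, and limma called 0. The interaction estimate was -4.76 ± 1.62 for Prg2 (adjusted p = 0.9999), -1.83 ± 1.65 for Elane, -0.61 ± 1.30 for Mpo and -0.74 ± 1.38 for Camp. For Prg2 it was -3.97 ± 2.25 when the first library of 4-month white matter was dropped. A wider gap at 21 months was therefore not shown for any member, with standard errors of 1.30 to 1.69 on the log2 scale for the members other than Ctsg and Cebpe.

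Within grey matter, the libraries of the 2 ages overlapped for 7 of the 9 tested members, and Prg2 and Cebpe were the exceptions. These libraries include the 21-month grey matter ones that helped to choose the genes, so the comparison is not independent of that choice. Elane averaged 19.2 ± 10.4 CPM (SD, n = 2 in each group) at 21 months and 15.1 ± 9.72 at 4 months. Mpo averaged 56.2 ± 25.5 CPM at 21 months and 55.1 ± 30.6 at 4 months. Fcnb averaged 9.71 ± 3.08 CPM at 21 months and 9.04 ± 3.74 at 4 months, levels that differed by less than the spread between libraries. Camp averaged 53.6 ± 11.9 CPM at 21 months and 72.2 ± 27.9 at 4 months, and Ltf 145.3 ± 45.2 CPM at 21 months and 226.6 ± 84.6 at 4 months. The first 4-month grey matter library was above its partner for all members but Prg2, and its red blood cell genes summed to 26140 CPM, against 1224 in its partner and 2664 and 734.4 in 21-month grey matter; the part of blood in these levels was not tested.

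Prg2 averaged 22.0 ± 7.92 CPM in 21-month grey matter and 2.62 ± 1.73 in 4-month grey matter, and Cebpe 1.41 ± 0.81 at 21 months and 3.48 ± 0.26 at 4 months. Their libraries did not overlap between ages, Prg2 being higher and Cebpe lower at 21 months. Of the 9 tested members 1 was thus higher without overlap, against 17.2% of all genes, and 1 lower, against 17.3%, which is near the background. The level of Prg2 at 21 months was 8.15 times that at 4 months (5.48 to 12.5, counting error), from 182 counts at 21 months and 29 at 4 months. That of Cebpe was 0.433 times (0.212 to 0.828), from 13 counts at 21 months and 39 at 4 months. The fitted log2 fold change was 3.06 ± 0.80 for Prg2 and -1.26 ± 1.001 for Cebpe, and neither passed in edgeR's test (adjusted p = 1 for both). No member and 0% of genes passed, DESeq2 and limma called 0, and 119 genes had an unadjusted p under 0.05.

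Because Prg2 is known from eosinophils, the 9 other eosinophil genes of a chosen list were set beside it. Their sum was 39.0 and 39.1 CPM in 21-month grey matter and 39.8 and 22.5 in 4-month grey matter. Siglecf made up 11.1 and 20.9 CPM of it at 21 months and 12.2 and 8.41 CPM at 4 months. In grey matter Ear2 stood at 10.5 and 6.98 CPM at 21 months and 13.95 and 6.22 CPM at 4 months. Alox15 stood at 7.13 and 2.23 CPM at 21 months and 4.535 and 1.65 CPM at 4 months. Ear2, Alox15 and Ear1 overlapped between these ages, and Ear6 had 6 and 1 counts at 21 months and 1 and 1 at 4 months. Epx, eosinophil peroxidase, had 1.98 and 5.30 CPM in grey matter at 21 months and 0 and 1.10 CPM in grey matter at 4 months. Prg3, the neighbouring granule protein gene, had at most 1 count in any library, and Il5ra had counts in a lone library, 4 of them. The chemokine receptor Ccr3 had 1.58 and 2.23 CPM in grey matter at 21 months and 4.36 and 2.93 CPM in grey matter at 4 months. Siglecf stood at 8.41 to 20.9 CPM in grey matter but at 34.5 and 24.1 in 21-month white matter, where Prg2 was absent or at 1 count. Of the 9 basophil and mast cell genes, Prss34 had 3.96 and 2.23 CPM in 21-month and 0 and 1.46 CPM in 4-month grey matter, and the factor Gata2 5.15 and 4.47 CPM in 21-month and 0.87 and 1.10 CPM in 4-month grey matter. In none of the other 7 did both 21-month grey matter libraries lie above both 4-month ones: Kit had 2.58 and 3.35 CPM in 21-month and 2.97 and 3.47 CPM in 4-month grey matter, Mcpt8 had 7 and 5 counts in 21-month and 1 and 9 counts in 4-month grey matter, and Cpa3, Ms4a2, Tpsb2, Cma1 and Fcer1a had at most 8 counts in any grey matter library. Epx, Prg3, Il5ra, Ccr3, Ear1, Ear6, Mcpt8 and the genes of 8 counts or fewer were picked after their values were seen. The part of eosinophils and basophils in the level of Prg2 was not tested.

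In white matter, 21-month levels rested on few reads. The 21-month white matter libraries also helped to choose the genes, so the comparison of ages is not independent of that choice. The intervals given here cover counting error only. The summed counts of Mpo were 20 at 21 months and 26 at 4 months, those of Camp 36 at 21 months and 71 at 4 months, and those of Ltf 89 at 21 months and 173 at 4 months. The 21-month level was 0.628 times the 4-month level for Mpo (0.332 to 1.17), 0.414 times for Camp (0.269 to 0.627) and 0.420 times for Ltf (0.321 to 0.545). Against the second 4-month white matter library alone these were 0.439 times for Mpo (0.227 to 0.843), 0.290 times for Camp (0.186 to 0.445) and 0.272 times for Ltf (0.207 to 0.355). Libraries of the 2 ages overlapped for these genes: Ltf stood at 19.2 and 1.99 CPM at 21 months and at 5.45 and 39.6 at 4 months. In edgeR's test 0 of 9 members and 0% of genes passed, with 1316 genes at an unadjusted p under 0.05; DESeq2 called 369 genes and no member, and limma called 0. Without the first 4-month white matter library 1 gene, no member, was called.

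Levels were then compared among stages within each library, which does not depend on how libraries are scaled. Elane, Mpo, Prtn3 and Ctsg together, the azurophil set, were set against S100a8 and S100a9, abundant messages of mature neutrophils. As a share of the counts of both sets, the azurophil set took 3.70% and 2.44% in white and 5.94% and 12.04% in grey matter at 21 months. At 4 months it took 1.69% and 4.03% in white and 5.34% and 5.26% in grey matter. All white matter shares lay below all grey matter shares. The exact 95% binomial intervals of single white matter libraries reached up to 6.13%, above the lowest grey matter share, so for libraries with 4 to 41 azurophil counts the order is not firm. The specific granule genes Camp and Ltf took 15.6% and 5.88% of their sum with S100a8 and S100a9 in white and 21.4% and 16.6% in grey matter at 21 months, and 6.91% and 18.2% in white and 16.8% and 20.5% in grey matter at 4 months. These overlapped between the regions at 4 months and not at 21 months. The azurophil set and the S100 genes were combined after their values were seen.

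Within the granule genes themselves, the azurophil set took 18.8% of its sum with Camp and Ltf in the first 21-month grey matter library (16.9 to 20.9) and 40.7% in the other (37.6 to 43.9). The 4-month grey matter libraries had 21.8% (20.3 to 23.4) and 17.7% (15.8 to 19.8). The second 21-month grey matter library thus stood apart, with more Elane, Mpo, Ctsg and Prg2 than its partner and less Camp, Ltf, Fcnb, Cebpe and Ms4a3. Its 16 cell cycle genes summed to 245.9 CPM, against 166.6 in its partner and 195.9 and 150.3 in 4-month grey matter, and whether these vary together was not tested. White matter shares were 17.3% and 28.6% at 21 months and 18.8% and 15.8% at 4 months, on 14 to 259 counts, with intervals as wide as 8.39% to 58.1%. Prg2 took 22.9% and 20.3% of its sum with the azurophil set in 21-month grey matter and 1.30% and 7.53% in 4-month grey matter, intervals of which did not overlap between ages.

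**Figure D3:**
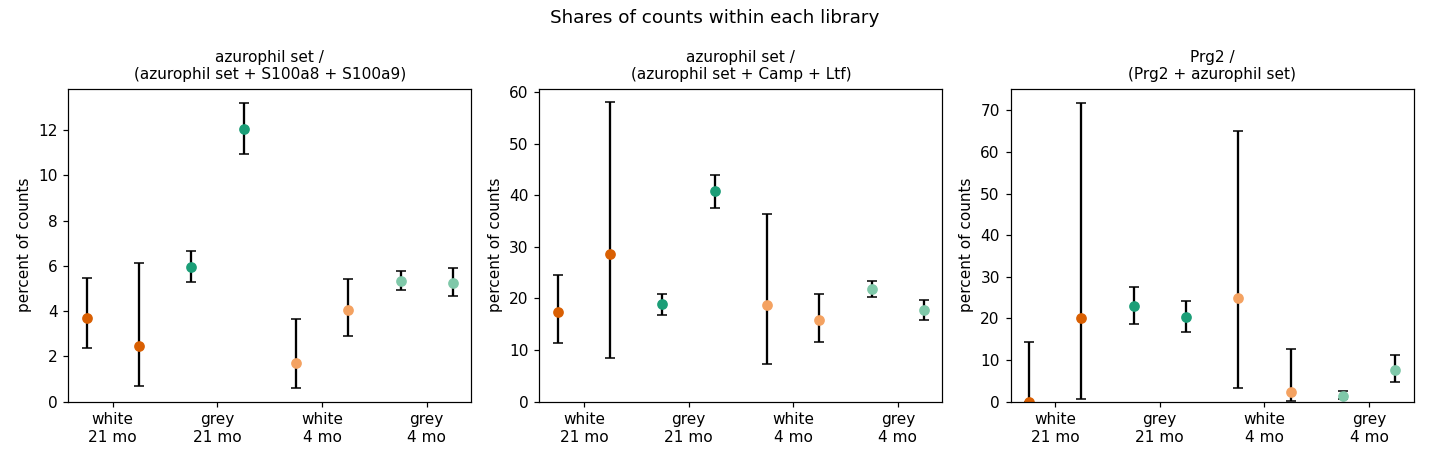
Shares of counts within each library, in percent, with exact 95% binomial intervals: the azurophil set (Elane, Mpo, Prtn3, Ctsg) of its sum with S100a8 and S100a9, the same set of its sum with Camp and Ltf, and Prg2 of its sum with the azurophil set. In the first panel the white matter points (1.69% to 4.03%) lie below the grey matter points (5.26% to 12.04%); in the middle one the second 21-month grey matter library stands at 40.7%; in the last one 21-month grey matter lies at 20.3% and 22.9%.

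Other genes of the granulocyte series were taken as lists by role. None of their tested genes was called in any comparison in the fit of all 8 libraries. The lists were drawn up with earlier results of these data known, and their genes could pass the low-count filter through grey matter alone. Counts of lower genes in these lists are therefore no support for a difference. Of all 16237 genes tested, 8012 had a lower estimate in white matter at 4 months. Of 9 secondary granule genes besides Camp and Ltf, 8 were tested, and all 8 had a lower estimate in white matter at 4 months, with a median log2 fold change of -2.85, and of -2.31 when the first white matter library was dropped. Ngp, a neutrophilic granule protein related to cathelicidin, stood at 75.0 and 9.69 CPM in white and 674.2 and 530.3 in grey matter at 21 months, and at 32.7 and 144.2 in white and 1175 and 575.4 in grey matter at 4 months. Lcn2, an iron-carrier binding protein of the same granules, stood at 27.7 and 12.4 CPM in white and 249.6 and 208.2 in grey matter at 21 months. Of 18 mature neutrophil genes, all tested, 18 had lower estimates at 4 months, with a median of -2.68, and -2.33 when the first library of 4-month white matter was dropped. S100a9 stood at 108.8 and 32.0 CPM in white and 659.2 and 594.2 in grey matter at 21 months. The receptor Csf3r of this list, at 674.3 and 473.1 CPM in white and 651.7 and 720.7 in grey matter at 21 months, overlapped between the regions at that age. At 4 months it stood at 157.4 and 550.1 CPM in white and 954.2 and 626.4 in grey matter.

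Of 16 further primary granule and promyelocyte genes 13 were tested, and their median was -1.16 at 4 months, with 10 of 13 lower in white matter, and -0.68 when the first library of 4-month white matter was dropped. At 21 months their median was -0.083, with 7 of 13 lower. The 16 genes then summed to 1133 and 829.9 CPM in white and 1003 and 827 in grey matter, so this list did not follow the members at that age. Calr, Ctsc and Srgn, their most abundant members, are used by many cells, and Ctsc, the protease that activates granule proteases, stood at 362.6 and 279.1 CPM in white and 271.8 and 232.2 in grey matter at 21 months. Granulocyte transcription factors other than Cebpe had a median of -1.03 at 4 months with all 7 tested genes lower, and of -0.32 without that library. Homeostatic microglia genes, all 12 of them lower too, had a median of -1.11, which became -0.40 once that library was dropped. The medians of the factors were thus no lower than those of microglia genes, and no difference particular to granulocytes is read from them. The most abundant of these factors, Runx1, Irf8 and Spi1, which microglia use too, stood at 184.3 to 375.6 CPM in the 4 libraries of 21 months. For 12 monocyte genes the median was -1.85 at 4 months, with all 12 lower, and -1.59 without that library, and their sum stood at 361.4 and 299.2 CPM in white and 830.9 and 512.7 in grey matter at 21 months. It was 90.1 and 203.7 in white and 603.1 and 439.3 in grey matter at 4 months. Over all genes tested the median at 4 months was 0.011, with 8012 of 16237 lower. Monocyte and mature neutrophil genes were thus lower in the same libraries as the precursor genes, and their part in these levels was not tested.

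**Figure D4:**
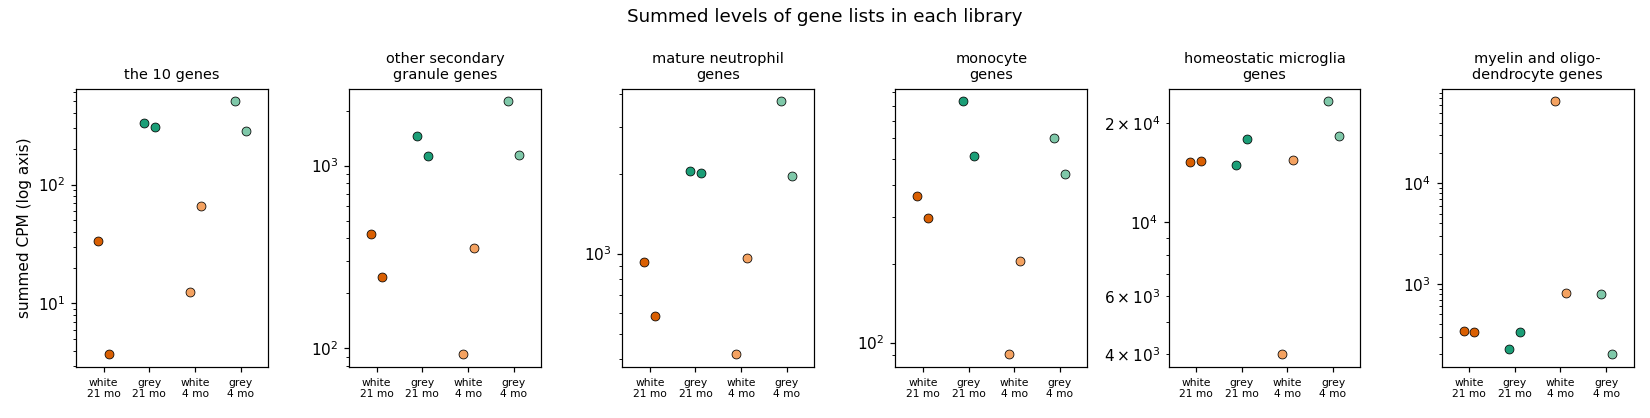
Summed CPM of gene lists in each library on log axes that differ between panels; each point is a library, grouped by region and age. The 10 genes, other secondary granule genes, mature neutrophil genes and monocyte genes are lower in each white matter library than in the grey matter libraries of the same age, while homeostatic microglia genes lie at 14930 to 23220 CPM in all but the first 4-month white matter library, which also holds the myelin genes at 65580 CPM.

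The earliest progenitors are marked by other genes. The 12 stem and progenitor cell genes summed to 532.9 and 507.1 CPM in white and 354.3 and 431.0 in grey matter at 21 months. Most of that came from Cdk6 and Cd34, and Cd34 stood at 260.2 and 180.3 CPM in white and 98.6 and 111.9 in grey matter. At 4 months the list summed to 105.0 and 379.8 CPM in white and 255.0 and 327.8 in grey matter, which overlapped. Of 9 tested stem and progenitor genes 7 had lower estimates in white matter at 4 months, with a median of -0.63, and -0.36 without the first white matter library. The stem cell factor receptor Kit stood at 1.24 to 3.47 CPM in all libraries but the first 4-month white matter library, where it reached 16.4 CPM. Cell cycle genes summed to 167.9 and 165.6 CPM in white and 166.6 and 245.9 in grey matter at 21 months. Of these, Mki67 was at 51.1 and 62.8 CPM in white and 69.3 and 94.3 in grey matter. At 4 months Mki67 stood at 4.36 and 26.3 CPM in white and 48.5 and 56.3 in grey matter. Of 13 tested cell cycle genes, 9 had lower estimates in white matter at that age, with a median of -1.16, and -0.96 without the first white matter library. In either direction, 5 of the 13 had an unadjusted p under 0.05 in edgeR's test, against 1446 of all 16237 genes tested. Stmn1 was among these 5 and was higher in white matter, with a log2 fold change of 4.70. The summed cell cycle level at 4 months was 450.6 and 104.4 CPM in white and 195.9 and 150.3 in grey matter. In the first white matter library, rich in myelin genes, Stmn1 gave 297.6 CPM and Pcna 119.9 CPM of that sum.

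The genes whose profile over the 8 libraries was most like the mean of the 9 tested members were sought among all genes tested. Likeness was the root mean square difference between centred log2(CPM + 1) profiles. The 10 nearest lay at 0.268 to 0.437, and among them were Anxa1, Mmp9, Mmp8, Hp, Gda, Hdc, Slfn4, Cxcr2 and Retnlg. Anxa1, an annexin abundant in neutrophils, had 4.26 and 2.48 CPM in white and 47.7 and 43.0 in grey matter at 21 months, and 4.36 and 10.03 in white and 70.8 and 36.0 in grey matter at 4 months. Mmp9 and Mmp8 are matrix proteases of the later granules, and Cxcr2 is the chemokine receptor of mature neutrophils. Anxa1, Mmp9, Slfn4, Cxcr2 and Retnlg were in the mature neutrophil list, Mmp8 and Hp in the secondary granule list and Hdc in the primary granule and promyelocyte list, while Gda was in none. Fcnb was the member nearest to the mean, at 0.277, and Prg2 the farthest, at 1.10.

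**Figure D5:**
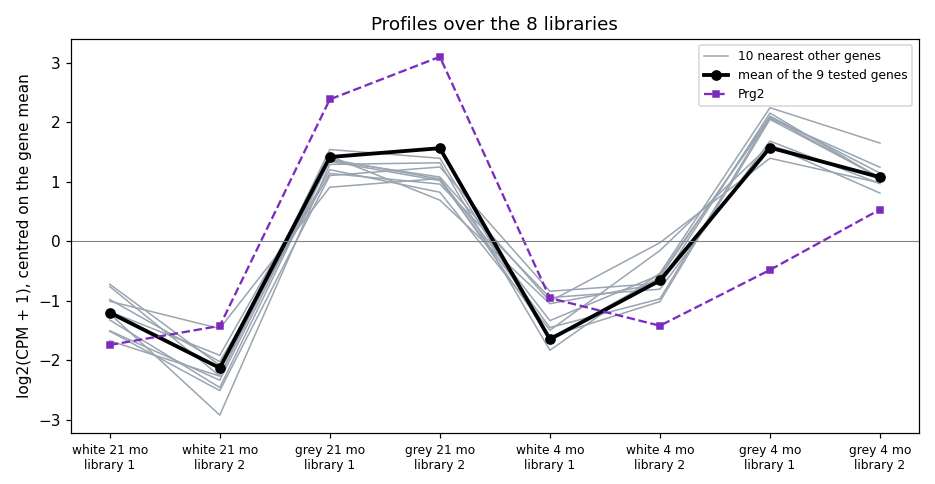
Level of each gene in the 8 libraries as log2(CPM + 1) less the gene's own mean, for the mean of the 9 tested members, the 10 nearest other genes and Prg2; the lines join libraries only to guide the eye. All lines are low in the 4 white matter libraries and high in grey matter, except that Prg2 falls below its own mean in the first 4-month grey matter library.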

How the data were processed

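Polyadenylated RNA of 8 libraries was sequenced on an Ion Proton, per the labels. The authors deposited a table of estimated counts for 51810 genes; Partek and DESeq2 are named, per the submitters' processing notes, while no aligner, build or strand setting is named in them (not given in the sources used here). Estimated counts were rounded. A gene passed edgeR's filterByExpr with its default settings (16237 genes). CPM values are depth-scaled counts that use the TMM-scaled library size. The test was edgeR's robust quasi-likelihood test (edgeR 4.0.16, R 4.3.3) on 4 group means over all 8 libraries with 4 residual degrees of freedom, with Benjamini-Hochberg adjustment over all genes tested and a threshold of 0.05. An exact permutation test of 2 against 2 libraries cannot go below p = 0.333, so none was used. DESeq2 1.42.0 and limma 3.58.1 (voom with quality weights) were alternatives. Ratios of summed counts carry exact 95% binomial intervals that cover counting error only, and a group at 0 was set to a floor of 3 counts over the group. Genes named were the 10 members, up to 3 of the highest mean CPM per list, and the 10 nearest profiles, which left out predicted gene models and of which 1 is not reported here; others are said to be chosen after their values were seen or overlap a member. Members and lists were chosen with earlier results of these data known. The fit was tested on simulated data. Total counts per library were 3273258 to 6315782.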

Additional observations from a re-analysis of the deposited data

Results flagged for a closer look

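Prg2, the gene of eosinophil major basic protein, was picked out because its libraries at 21 and 4 months did not overlap in either region and lay in opposite orders. In grey matter both 21-month libraries, at 16.4 and 27.6 CPM, lay above both 4-month libraries, at 1.40 and 3.84 CPM, a fitted log2 fold change of 3.06 ± 0.80 that did not pass in edgeR's test (adjusted p = 1). In white matter the order rests on 0 and 1 counts at 21 months and 2 and 1 counts at 4 months, and the 2 libraries with 1 count differ in CPM only through library size. The ratio of 21 to 4 months there was 0.272, with a counting interval of 0.00518 to 3.39, so no direction is shown in white matter. The difference between the regions, tested as an interaction in edgeR's quasi-likelihood test, was -4.76 ± 1.62 and did not pass (adjusted p = 0.9999). The 21-month values of Prg2 also helped to choose it.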

How the results depend on the processing

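With all 8 libraries, edgeR called 0 genes and 0 members in each of the 5 comparisons, and RLE scaling or leaving out CT010467.1 and AY036118 gave 0 as well. At 21 months, white against grey matter, DESeq2 called 54 of 16237 genes and 4 of 9 members, and limma 113 of 16237 genes and 2 of 9 members. With no filter, calls were 147 of 32865 genes and 6 of 10 members. With the 21-month libraries alone they were 232 of 14717 genes and 3 of 7 members. The 21-month difference chose the genes, so nothing is read from these member calls. At 4 months DESeq2 called 515 of 16237 genes and 3 of 9 members. With no filter 1113 of 32865 genes and 6 of 10 members were called at 4 months. Limma, and the libraries of a comparison alone, called 0 in the comparisons other than that at 21 months (libraries alone could not be made for the interaction). With DESeq2, 369 genes were called for age in white matter and 20 for the interaction; with no filter these were 963 and 470, and 17 for age in grey matter, with no member in any of them. Leaving out each library in turn gave 0 to 19 genes and 0 to 1 members at 21 months, 0 to 4222 genes and 0 to 4 members at 4 months, 0 to 4491 genes for age in white matter and 0 to 2422 for the interaction. The highest 3 of these came without the second 4-month white matter library, which leaves the library rich in myelin genes to stand for its group. The lone library of a group was taken to vary like the others. Same-numbered libraries were not shown to come in pairs (correlations of deviations -0.14 to 0.42, with 2 numbers). The replicate block called 0 genes and 0 members throughout. With the first 4-month white matter library also left out, an alternative added after seeing the data, the block called 44 genes and 1 member at 21 months.

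In the comparison of white with grey matter no sign changed among the 7 members refitted at 21 months or the 8 at 4 months. These had counts in both regions, and Ms4a3, Cebpe and, at 21 months, Ctsg were not among them. For each refitted member all white matter libraries lay below all grey matter libraries of the same age. Leaving out a library could therefore hardly turn a sign, and the 21-month difference also chose the genes. The unchanged signs are thus no support for a difference. Fold changes spanned -9.60 to -2.25 at 21 months and -9.07 to -1.27 at 4 months on the log2 scale. The lower ends, Prg2 at 21 months and Elane at 4 months, came from refits whose remaining white matter library had no count of the gene. Fcnb at both ages and Prtn3 at 21 months also had such refits, and these values have no meaningful size. For age in grey matter, leaving out a library turned the sign of 6 members. Their log2 fold changes then spanned -0.35 to 1.21 for Elane, -0.53 to 0.74 for Mpo, -0.26 to 0.080 for Prtn3, -0.33 to 0.83 for Ctsg, -0.26 to 0.60 for Fcnb and -0.78 to 0.025 for Camp. Prg2 stayed between 2.504 and 3.95. The cause was not tested. Prtn3, Fcnb, Prg2, Ctsg, Cebpe and Ms4a3 had 0 to 5 counts per white matter group, which limits the precision of their ratios.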
